A study of Mus musculus with 4 samples.

Results

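The miR-193 and miR-365 clusters encode 3 mature miRNAs that were read on the arrays, mmu-miR-193, mmu-miR-193b and mmu-miR-365, out of 577 miRNA names, 567 of them mouse. Small RNA came from B104 cells, a clonal neuroblastoma line, on 4 single-colour arrays. The RBM3 knockdown group (2 arrays) had received 20 nM of 1 siRNA duplex against RBM3, and the control group (2 arrays) had been mock transfected without siRNA. All cells were harvested 48 h later, and RBM3, a cold-inducible RNA-binding protein, was lowered to ask how it affects the mature miRNA pool. The labels name the mouse as the organism, whereas B104 is known as a line of the rat central nervous system, and all miRNA names are those of a mouse array design. Neither group carried a non-targeting siRNA. The labels number the arrays of each group 1 and 2 without saying whether they came from separate cultures, so that every standard error and p-value measures only the spread between these arrays, which may be technical. The 3 miRNAs were selected on their shared genomic clusters and on the signals and detection flags that they showed on these same arrays, so their changes after knockdown are described here and not tested.

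A miRNA is cut from a hairpin by Drosha in the nucleus and then by Dicer in the cytoplasm, and it recognizes its target messages mainly through its seed, bases 2 to 8 from the 5′ end. miRNAs of 1 cluster are usually cut from a common primary transcript, so a change in transcription reaches all of them, while the later steps can differ from hairpin to hairpin. In human cancer cells miR-193b restrains CCND1, encoding cyclin D1, and PLAU, encoding urokinase, and miR-365 restrains NKX2-1. In mouse brown fat the miR-193b and miR-365 cluster is induced during differentiation and was described as holding back muscle genes there, although mice without the cluster form brown fat. B104 cells are not fat cells, and this role is given as background only.

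The mature sequences are shown because they set apart which of the 3 miRNAs can share targets and which loci the array can tell apart. The 3 names were assigned to entries of RefSeq (build GRCm38.p6), the first to miR-193a-3p, the second to miR-193b-3p and the third to miR-365-3p. The arm was part of this assignment, and probe sequences were not compared with the entries. Capitals mark the seed.

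mmu-miR-193: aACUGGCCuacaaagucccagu

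mmu-miR-193b: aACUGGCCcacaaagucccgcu

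mmu-miR-365: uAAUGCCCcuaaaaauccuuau

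miR-193 and miR-193b carried the same seed, ACUGGCC, which no other name among the 1679 mature names of the table had. They were identical at 19 of 22 positions and differed by U9C, A20G and G21C, with the base of miR-193 first and positions counted from the 5′ end, all outside the seed. miR-365 had a seed of its own, AAUGCCC, found under 1 mature name. Of the 22 bases, 11 were G or C in miR-193, 13 in miR-193b and 7 in miR-365.

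The 4 hairpins are shown with the mature miRNA in capitals, since they give the clusters their layout. Mir193a lies beside Mir365-2 on chromosome 11 and Mir193b beside Mir365-1 on chromosome 16, each pair on the plus strand with 0 annotated genes starting between the partners.

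Mir193a: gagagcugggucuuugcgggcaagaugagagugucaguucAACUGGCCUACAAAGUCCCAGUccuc

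Mir365-2: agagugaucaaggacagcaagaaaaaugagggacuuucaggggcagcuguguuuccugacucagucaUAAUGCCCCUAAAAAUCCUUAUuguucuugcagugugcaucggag

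Mir193b: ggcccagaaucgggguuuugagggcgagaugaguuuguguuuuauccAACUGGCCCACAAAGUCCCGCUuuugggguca

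Mir365-1: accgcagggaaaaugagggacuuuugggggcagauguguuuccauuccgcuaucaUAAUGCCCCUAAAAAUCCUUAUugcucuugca

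In all 4 the mature strand assigned to the array name was the 3′ arm. The hairpins were 66 nt (Mir193a), 112 nt (Mir365-2), 79 nt (Mir193b) and 87 nt (Mir365-1) long as annotated. Both miR-365 hairpins give the same mature miRNA, so its signal cannot be told apart by locus, and neither miR-193 nor miR-193b has a partner read on its own.

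The 3 miRNAs gave less signal on both knockdown arrays than on both control arrays. Lower signal was general: the mean log2 signal was lower after knockdown for 115 of the 130 mouse miRNAs detected on every array. The signal is the total gene signal that the scanner software adds up over a miRNA's probes after background subtraction, in arbitrary intensity units, with no scaling between arrays. miR-193, the product of the Mir193a hairpin, gave 70.7 and 66.9 on the knockdown arrays, against 347 and 394 on the control arrays. It was detected on all 4, and the means were 68.8 ± 2.70 (SD, n = 2) after knockdown and 370 ± 33.0 (SD, n = 2) in control cells. The log2 difference, knockdown minus control, was -2.43 with a standard error of 0.19, which left 18.6% of the control signal. Replicates lay 0.08 apart on the log2 scale in knockdown and 0.18 in control cells, far less than the groups.

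miR-365, which either cluster can supply, gave 108 and 101 on the knockdown arrays, against 405 and 476 on the control arrays. It too was detected on every array. The means were 105 ± 5.34 (SD, n = 2) after knockdown and 440 ± 50.5 (SD, n = 2) in control cells. Its log2 difference was -2.07 with a standard error of 0.19, and 23.8% of the control signal remained. The standard error is 1 value for all miRNAs because limma pooled the variance over all of them.

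miR-193b, from the other cluster, was detected on both control arrays and on neither knockdown array. Its signal was 3.85 and 4.33 on the knockdown arrays, against 70.3 and 73.5 on the control arrays. The software's own error of these signals was 5.62 and 5.05 on the knockdown arrays, larger than the signals themselves, and 8.43 and 8.06 on the control arrays. The knockdown signals were therefore not above background, and the log2 difference of -4.14 between the measured means carries no precise size. A fold was also taken against the lowest signal flagged as detected on each knockdown array (3.98 and 1.01). Where the miRNA's own signal was higher it was used instead, and the signal was then 17.3-fold lower after knockdown. That fold is not a lower bound, since the errors exceeded the knockdown signals. Other miRNAs also went undetected at up to 21.2 and 19.2 on the knockdown arrays. Against those values the signal was at least 3.56-fold lower, which is a smaller fold than the 4.20-fold of miR-365 and the 5.37-fold of miR-193. An order of miR-193b beside the other two can therefore not be given from the detection limit alone.

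**Figure D1:**
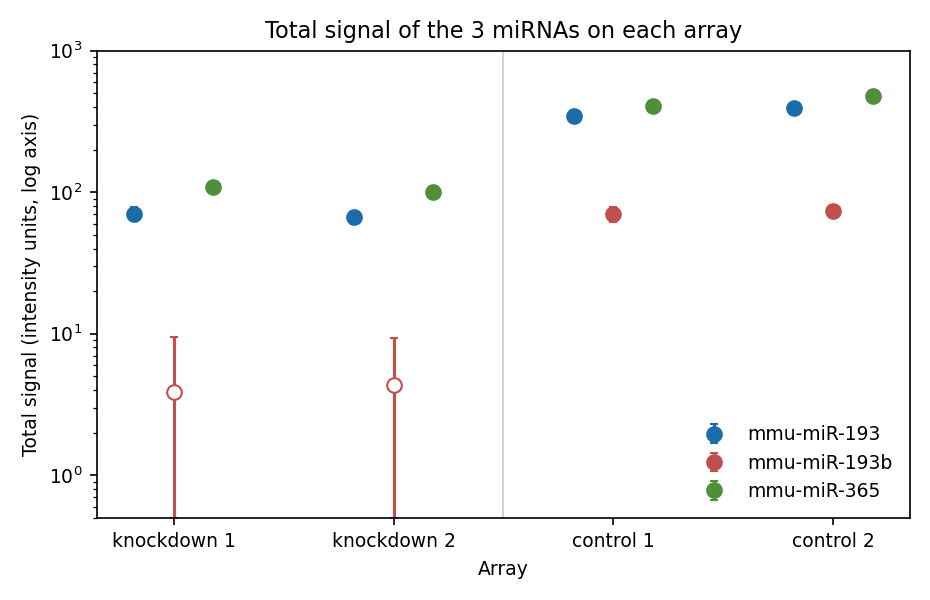
Total signal of mmu-miR-193, mmu-miR-193b and mmu-miR-365 on each array, in intensity units on a log axis, with the software's error of each signal as bars. Filled points were detected and open points were not; miR-193b falls to 3.85 and 4.33 on the knockdown arrays, where its bars reach below the axis.

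Detection was lost after knockdown for many miRNAs. Of 177 mouse miRNAs detected on both control arrays, 41 were detected on no knockdown array (23.2%), and miR-193b was 1 of these. A further 6 were detected on 1 knockdown array and 130 on both, with miR-193 and miR-365 among the 130. The passenger strand read from the miR-193 hairpin, miR-193*, was detected on no array, at -4.40 and -5.09 on the knockdown arrays and 0.59 and 1.11 on the control arrays, negative values being signals below the subtracted background.

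Each miRNA was read by 2 probes, each printed as 10 spots per array. The total signal is summed from these same probes, so their values describe its parts and are no separate support for it. The brighter miR-193 probe (A_54_P2375) averaged 71.4 and 69.7 over its spots on the knockdown arrays, against 353 and 398 on the control arrays. The dimmer one (A_54_P2374) averaged 35.1 and 31.1 on the knockdown arrays, against 155 and 175 on the control arrays. Both thus gave nearly the same log2 difference, -2.41 and -2.32. The ratio of the brighter to the dimmer probe was 2.03 and 2.24 on the knockdown arrays and 2.28 on each control array. The dimmer probe approached background after knockdown, where 14 of its 20 spots were flagged well above background, against 20 of 20 in control cells.

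The miR-365 probes were closer to each other. A_54_P4391 averaged 88.0 and 79.7 on the knockdown arrays, against 316 and 370 on the control arrays. A_54_P4390 averaged 75.3 and 72.2 on the knockdown arrays, against 276 and 323 on the control arrays. All 20 knockdown spots of each probe stood well above background, and the log2 differences were -2.03 and -2.02. The highest knockdown spot of A_54_P4391 was 104.5, and its lowest control spot 297.7, so that no unflagged spot crossed between the groups.

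Neither miR-193b probe was above background after knockdown. A_54_P3061 averaged 5.06 and 6.62 on the knockdown arrays, against 60.2 and 61.9 on the control arrays. A_54_P3060 averaged 0.75 and -0.09 on the knockdown arrays, against 42.7 and 45.1 on the control arrays. Of the 20 knockdown spots of each probe, 0 were flagged well above background, while 20 and 19 control spots were. The highest unflagged knockdown spot of the pair was 15.3, below the lowest control spot, 31.6. Signals were thus lower on both probes and not on 1 alone. Since miR-193 and miR-193b differ at 3 positions, some binding of each to the other's probes is possible and was not tested.

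**Figure D2:**
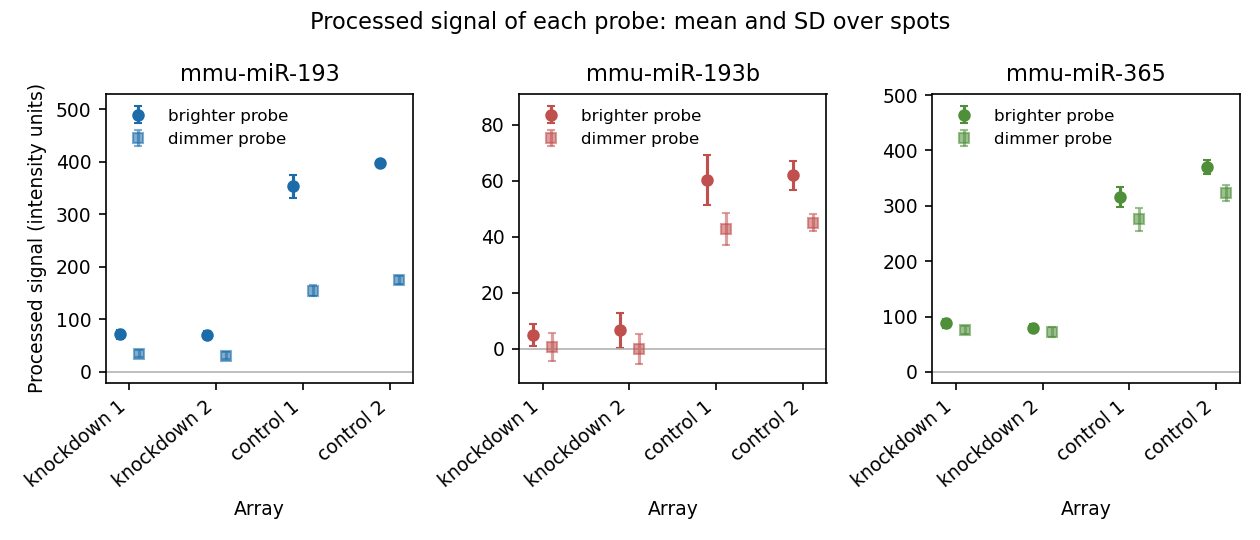
Processed signal of both probes of each miRNA on each array, in intensity units; points are means over the unflagged spots and bars their SD. Both probes of every miRNA are lower on the knockdown arrays, and those of miR-193b lie at the background line there.

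These changes were part of a general fall in signal. Of the 130 mouse miRNAs with detection on all 4 arrays, 112 gave lower signals after knockdown (86.2%) and 10 higher at an adjusted p under 0.05 (limma with Benjamini-Hochberg adjustment). miR-193 and miR-365 belong to the 130 and are given by their values only. The median signal of the 130 was 94.2 and 92.4 on the knockdown arrays, against 375 and 422 on the control arrays. The median log2 difference was -2.20, with quartiles at -2.45 and -1.42. Relative to that median miR-193 stood at -0.23 and miR-365 at 0.13, both between the quartiles, as the 36th and the 79th largest falls of the 130. Beside them the 6 positive control probes of the array were dimmer after knockdown too, by log2 differences of -1.56 to -0.66. Centred on these probes, miR-193 stood at -1.23 and miR-365 at -0.87, still lower but by less than without scaling, and 97 miRNAs were lower and 24 higher. Fewer cells, less miRNA per cell and a difference between the arrays themselves cannot be told apart here, and none of these was tested. With the 75th percentile of these miRNAs set equal on each array, 20 of 130 were lower (15.4%) and 44 higher, and miR-193 stood at -0.23 and miR-365 at 0.13. limma's scale normalization gave 111 lower and 14 higher on the log2 deposited values, with miR-193 at -1.96 and miR-365 at -1.69. The same normalization of the log2 signals floored at 0.5 gave 2 lower and 118 higher, with miR-193 at 1.58 and miR-365 at 2.19.

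**Figure D3:**
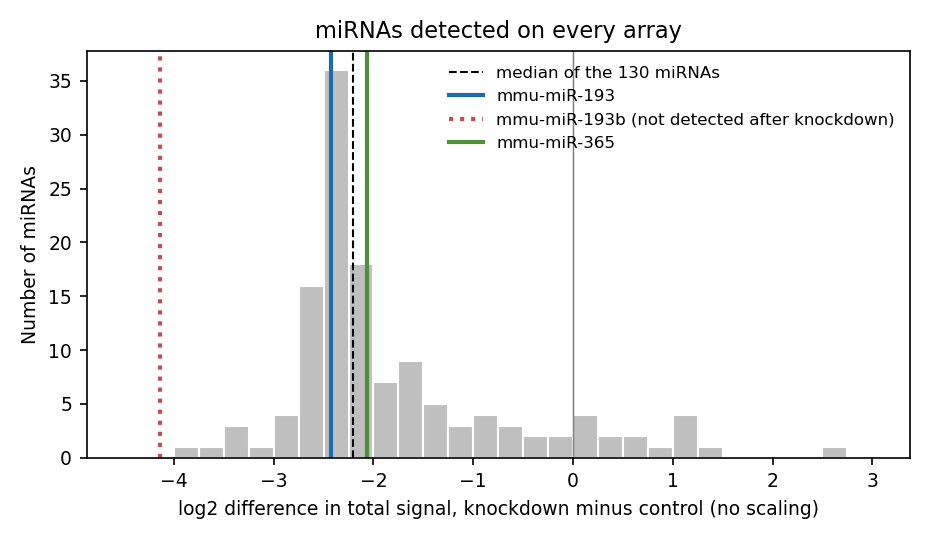
Log2 difference in total signal, knockdown minus control, of the 130 miRNAs detected on every array (grey bars, number of miRNAs), with their median of -2.20 dashed. miR-193 at -2.43 and miR-365 at -2.07 lie on either side of the median, and the dotted line of miR-193b at -4.14 rests on knockdown signals below detection.

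miR-193b was also set beside miRNAs of like brightness in control cells. This comparison was chosen after the values were seen and is a description, and signals near background have no order among them. Of 28 miRNAs with a mean control signal of 50 to 100 that were detected on both control arrays, 15 remained detected on both arrays after knockdown and 11 on neither. The knockdown means of the other 27 ran from 5.03 to 354 with a median of 18.1, while miR-193b averaged 4.09 ± 0.34 (SD, n = 2) after knockdown and 71.9 ± 2.20 (SD, n = 2) in control cells. Similar signals came from miR-532-3p, with 5.03 after knockdown and 71.6 in control cells, and from miR-148a, with 7.20 after knockdown and 61.5 in control cells. The gaps of miR-193b to these 2 lie within the software's errors of 5.62 and 5.05 given above.

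**Figure D4:**
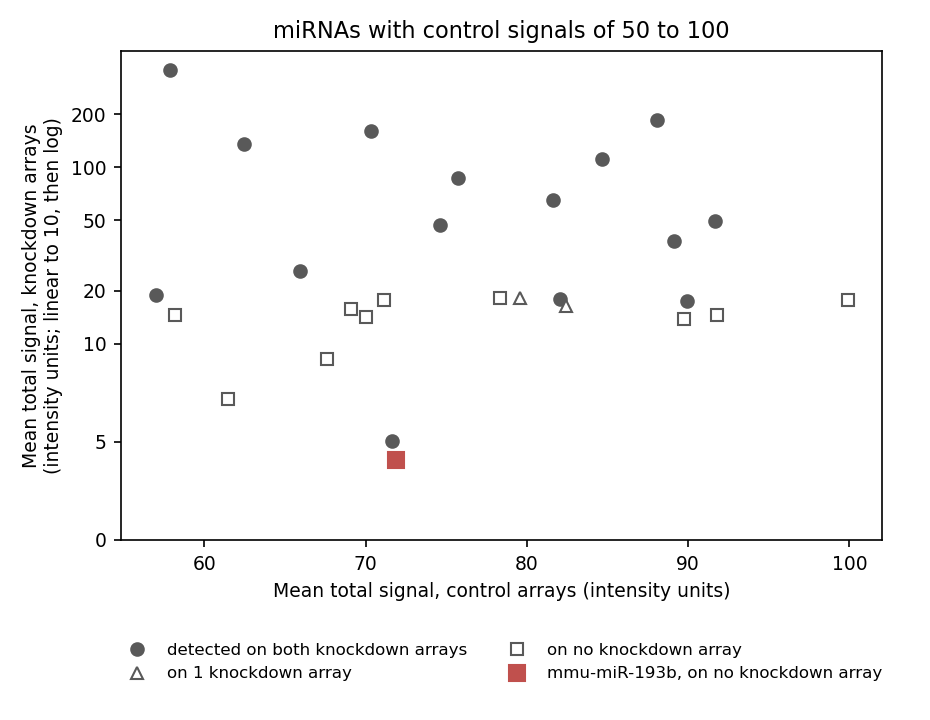
Mean total signal on the knockdown arrays (intensity units, linear to 10 and logarithmic above) against the mean on the control arrays for the 28 miRNAs with control means of 50 to 100. Point shape gives detection on the knockdown arrays; miR-193b (red) at 4.09 and miR-532-3p at 5.03 are among the weakest, and the gap between them is smaller than the software's errors of 5.62 and 5.05 for miR-193b.

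The miRNAs nearest to miR-193b in control signal among those with the same detection pattern were miR-196b, miR-872 and miR-219. miR-196b gave 18.7 and 16.6 on the knockdown arrays, against 66.7 and 75.5 on the control arrays. miR-872 gave 15.5 and 12.8 on the knockdown arrays, against 66.7 and 73.4 on the control arrays. miR-219, known as an oligodendrocyte miRNA, gave 17.3 and 14.3 on the knockdown arrays, against 66.2 and 71.9 on the control arrays. All 3 matched miR-193b in control cells within 0.06 of log2 signal. Their signals after knockdown read higher, but these, too, did not count as detected, so no order of the falls is drawn from them.

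Cluster partners were then set against each other within each array, which removes any brightness common to the whole array. The log2 signal of miR-193 minus that of miR-365 was -0.62 and -0.59 on the knockdown arrays, against -0.22 and -0.27 on the control arrays. The level of this difference depends on the probes, and only its change is read. It averaged -0.60 ± 0.02 (SD, n = 2) after knockdown and -0.25 ± 0.04 (SD, n = 2) in control cells, a change of -0.36. The ratio of miR-193 to miR-365 was therefore 0.78 times that of control cells. The groups did not overlap, but neither did those of 7497 of all 8385 pairs among the 130 miRNAs (89.4%). The change is a description, since both miRNAs were selected on these signals. Since miR-365 also comes from the Mir365-1 locus, the contributions of the 2 loci to this change cannot be told apart.

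Other clusters gave gaps of similar size. Of 32 pairs of miRNAs listed from known clusters, not all of them direct neighbours, 21 had both partners detected on every array. Some miRNAs entered several pairs, and whether other partners, like miR-365, come from more than 1 locus was not checked. The gap between the log2 changes of 2 partners had a median size of 0.29 over the other 20 pairs, and 6 of these were wider than the 0.36 of miR-193 and miR-365. They ran from 0.002 for miR-106a and miR-363 (-2.37 and -2.37) to 0.94 for miR-221 and miR-222, which changed unequally, at -1.998 and -1.055. Over all 8385 pairs the median size was 0.81, and 70.0% were wider than 0.36. The pair of miR-193b and miR-365 could not enter, because miR-193b was not detected after knockdown.

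**Figure D5:**
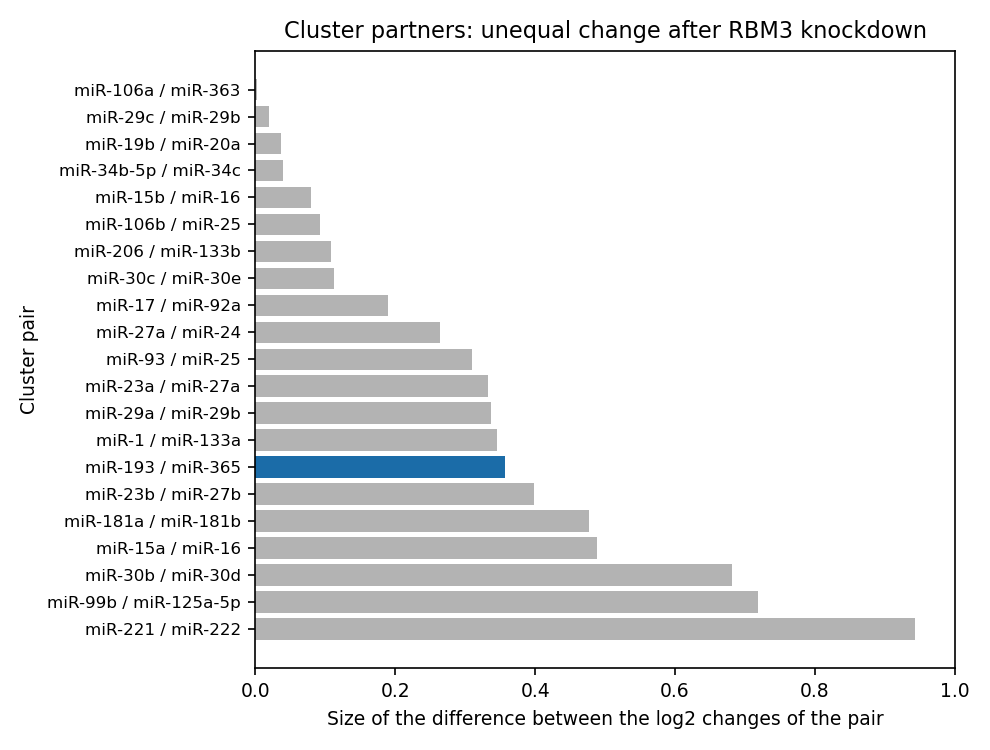
Size of the gap between the log2 changes of the 2 miRNAs of each cluster pair detected on every array, largest at the bottom. miR-193 and miR-365 (blue) at 0.36 have 6 wider pairs below them, up to 0.94 for miR-221 and miR-222.

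The profiles most like those of miR-193 and miR-365 over the 4 arrays were sought by the distance between log2 signals after each miRNA was centred on its own mean. For miR-193 these were miR-24 (distance 0.07, log2 difference -2.36), miR-345-5p (0.07, -2.39) and miR-363 (0.07, -2.37). miR-24 was far brighter, with 984 and 948 on the knockdown arrays, against 4669 and 5269 on the control arrays. For miR-365 they were miR-30e (0.04, -2.09), miR-27a (0.06, -2.10) and miR-148b (0.06, -2.04). miR-27a gave 766 and 734 on the knockdown arrays, against 3023 and 3401 on the control arrays. No cluster partner was among the 3 nearest of either miRNA, and with 4 arrays such likeness is a description only.

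Further miRNAs with known roles in brown fat were measured as the pathway context of the miR-193b and miR-365 cluster. Of 18 listed, 15 were detected on some array and 14 on every array; after knockdown 14 of these 14 had fallen and 0 were higher, beside the 86.2% of all miRNAs, with a median log2 difference of -2.16 against -2.20. miR-155, a repressor of brown fat differentiation through C/EBPβ, gave 43.8 and 44.7 on the knockdown arrays, against 120 and 132 on the control arrays (-1.51). miR-133a, which restrains Prdm16, gave 322 and 319 on the knockdown arrays, against 692 and 910 on the control arrays (-1.31), the smallest fall of the 14. miR-455, which promotes the brown fat program in mice, gave 65.6 and 59.7 on the knockdown arrays, against 343 and 400 on the control arrays (-2.57). miR-93 fell most, at -2.80. miRNAs described as promoting and as restraining brown fat were thus both lower, and miR-193 and miR-365 lay inside the range of the list.

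The identity of the cells was checked on marker miRNAs. Of 7 neural markers, 5 were detected on some array, and 3 of them on every array (miR-9, miR-9* and miR-128). In control cells miR-7a (147 and 153) and miR-218 (35.5 and 42.4) also passed detection on each array, but after knockdown neither did. By contrast miR-124 and miR-137, defining markers of neurons, were detected on none. The summed signals of the neural list were 178 and 183 on the knockdown arrays and 1013 and 1126 on the control arrays. All 4 skeletal muscle markers (miR-206, miR-1 and both miR-133 forms) were detected throughout, with summed signals of 4441 and 4591 after knockdown and 10190 and 12740 in control cells and a median log2 difference of -1.33. Of the 2 oligodendrocyte markers both were detected in control cells, but only miR-338-3p was detected on every array. By contrast 0 of 5 blood, 0 of 1 liver and 0 of 6 epithelial markers were detected on any array. The muscle list thus fell less than the -2.20 of all miRNAs, and the part of the markers in the values of miR-193, miR-193b and miR-365 was not tested.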

How the data were processed

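Per the labels, mirVana-isolated RNA was labelled with Cy3. The authors scanned the arrays with Agilent Feature Extraction 10.1.1.1 (array annotation mm9), and the files hold background-subtracted intensity per spot plus, per miRNA, a total signal and a detection flag. The deposited value table is that total intensity plus 20, unscaled. All 4 arrays shared 1 slide and no spot was saturated. Here signals below 0.5 were set to 0.5, taken to log2 and, for the 130 miRNAs detected on every array, fitted in limma 3.58.1 (R 4.3.3) with the replicate number as a block, since the methods allow for pairing, and Benjamini-Hochberg adjustment at 0.05. The methods describe arrays brought to equal median absolute deviations. limma's scale normalization instead equalizes the median absolute value of uncentred log2 signals, and so may differ from what the authors ran. It was made an alternative, because it turns most directions on log2 values with the floor of 0.5 chosen here. On log2 deposited values it gave 111 lower and 14 higher. Centring on the median and scaling to 1 median absolute deviation gave 41 lower and 49 higher. Deviations from the group means correlated at -0.52 between arrays of 1 number, over 130 miRNAs. limma's prior was infinite, so small p-values rest on a pooled variance. Outlier-flagged spots were left out of the probe means.

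The members, lists, tests and rule for names were chosen with earlier results of these data known. Named were the 3 miRNAs, their passenger strands, the 3 nearest profiles of each, listed brown fat miRNAs and the extreme cluster pairs; miR-532-3p and miR-148a were named after their values were seen. Alternatives covered scaling, background correction, the deposited values, the floor, the detection filter, the replicate block and each array left out. On simulated data (130 miRNAs) 30 of 30 changes of 1 on the log2 scale and 29 of 30 of 0.5 were recovered, and 1 of 70 unchanged miRNAs was called. The simulated noise was independent, with 1 SD of 0.109 for every miRNA and no shift common to an array. It therefore checks that the fit runs and not the calls on the real arrays. Precision is limited by having 4 arrays. No genome coordinates are given, since the sequence table (GRCm38.p6) is of another build than the annotation.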

Additional observations from a re-analysis of the deposited data

How the results depend on the processing

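The gap between miR-193 and miR-365 cannot move under 7 of the 18 alternatives (array-wide centring, floor, detection filters, replicate block), and in the other 11 it ran from -0.61 to -0.22. The single log2 differences depended on scaling, given here as miR-193, miR-365 and miR-193b in that order. Centring on the 75th percentile gave -0.23, 0.13 and -1.94, centring and scaling to 1 median absolute deviation -0.39, 0.051 and -2.72, quantile normalization -0.44, -0.005 and -2.93, normexp with quantile normalization -0.25, -0.027 and -0.43, and centring on the positive control probes -1.23, -0.87 and -2.94. Scale normalization gave 1.58, 2.19 and -2.01 on floored log2 signals and -1.96, -1.69 and -1.80 on log2 deposited values. Unscaled log2 deposited values gave -2.13, -1.88 and -1.93, and the processed signal per probe gave -4.78 for miR-193b. The turned signs, all but 1 of them for miR-365, came with settings that remove or rescale the general fall.

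Leaving out each array in turn gave -2.52 to -2.34 for miR-193, -2.19 to -1.95 for miR-365, -4.22 to -4.05 for miR-193b and -0.38 to -0.33 for the gap. Counts over all miRNAs were 110 to 114 lower and 10 to 11 higher in those fits. They were 113 lower and 10 higher with no replicate block and 113 and 11 with a crossed replicate block, chosen after seeing the data. The 3 log2 differences cannot move under either setting, since the block leaves the group means as they are. Lower and higher counts were 20 and 44 with 75th percentile centring, 2 and 118 with scale normalization of floored signals, 41 and 49 with median absolute deviation scaling, 56 and 31 with quantile normalization, 58 and 30 with normexp, 97 and 24 with positive control centring, 111 and 14 with scale normalization of deposited values, 163 and 28 of 214 detected on at least 1 array, and 17 and 1 of 567 with no detection filter. With 2 arrays per group and miR-193b below background after knockdown, the size of its fall has no upper limit.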
